A study of Mus musculus with 6 samples.

Results

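Transcripts of the albumin family and of other plasma carrier proteins were followed in the liver of insulin-resistant (IR) mice given insulin or its vehicle. The genes were taken by symbol from the count table, and all 8 of them, Alb, Afp, Afm, Gc, Ttr, Rbp4, Trf and Cp, were found among its 54532 genes. Male C57BL/6J mice had been made insulin resistant by 6 weeks of high-fat diet from 8 weeks of age, so the diet, the strain and the sex were shared by both groups. After a 16 h fast, 3 mice received insulin at 0.75 units per kg body weight (IR insulin) and 3 received bovine serum albumin, the vehicle (IR vehicle), and livers were taken 6 h later. Each library held the liver RNA of 1 mouse, and p-values below set the difference between groups against the spread between these mice. The comparison asks how insulin altered hepatic transcript levels during IR.

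The liver makes most of the proteins that carry small molecules through plasma. Albumin binds fatty acids, bilirubin and many drugs, and its relatives alpha-fetoprotein, afamin and the vitamin D-binding protein (the Gc product) arose from one ancestral gene and still lie close together in the genome. Transthyretin (Ttr) carries thyroxine and holds retinol-binding protein (Rbp4) in plasma, transferrin (Trf) carries iron, and ceruloplasmin (Cp) is a copper-containing ferroxidase that helps load iron onto transferrin. Several of these genes are used as measures of hepatocyte function, and alpha-fetoprotein is a fetal liver protein that is largely shut off after birth.

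Library totals ran from 18449986 to 21827619 counts, and 13377 genes passed the filter on low counts, all 8 carrier genes among them. The 10 hepatocyte markers were all detected, with a summed level of 44825 to 57066 CPM (counts scaled by TMM to a common library size) in vehicle and 40094 to 49261 CPM in insulin libraries. Muscle and pancreas markers summed to less than 1 CPM in every library. Adipocyte markers varied widely, with a sum of 0.191 to 63.6 CPM in vehicle libraries and up to 154 CPM in insulin libraries. The groups overlapped in this sum, and its source was not tested. IR vehicle replicate 2 stood apart: it had counts in 16470 genes where the other libraries had 18389 to 18874, and its TMM scaling factor was 0.829 where theirs were 0.971 to 1.09. Its erythroid marker sum was the highest, at 1587 CPM, within a vehicle range that began at 413 CPM and beside an insulin range of 312 to 478 CPM. The part of these features in the carrier gene values was not tested, and the fold change of each carrier gene is also given without this library.

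The albumin gene family occupies one stretch of mouse chromosome 5 (build 38, coordinates from GENCODE release 21). Alb lies at chr5:90460897-90476602, Afp at chr5:90490737-90508907 and Afm at chr5:90518932-90553543, all on the plus strand and with no gene annotated between them. The gaps are 14134 bp from Alb to Afp and 10024 bp from Afp to Afm. Gc lies on the minus strand at chr5:89417522-89457898, 1002998 bp before Alb with 5 protein-coding genes between. The other carriers are scattered, with Trf at chr9:103204001-103230444 (minus), Rbp4 at chr19:38116629-38125281 (minus) and Cp at chr3:19957054-20009145 (plus), and Ttr lies on yet another chromosome.

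The promoters of the 4 family genes followed here are shown. Alb and Afm, on either side of Afp, kept a near-constant ratio of counts while Afp between them was almost silent. Each sequence is the 250 bases before the start of transcription in RefSeq (GRCm38.p6), read 5′ to 3′ on the gene's own strand. They are chr5:90460620-90460869 for Alb, chr5:90490464-90490713 for Afp, chr5:90518699-90518948 for Afm and chr5:89457899-89458148 for Gc. Capitals mark GTTAAT, the first bases of the sequence bound by HNF1, or its reverse complement.
Alb: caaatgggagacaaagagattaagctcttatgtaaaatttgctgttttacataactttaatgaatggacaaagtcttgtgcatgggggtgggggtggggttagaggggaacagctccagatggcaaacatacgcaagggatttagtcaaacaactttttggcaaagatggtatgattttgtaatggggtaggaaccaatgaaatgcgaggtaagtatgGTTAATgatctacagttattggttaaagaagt
Afp: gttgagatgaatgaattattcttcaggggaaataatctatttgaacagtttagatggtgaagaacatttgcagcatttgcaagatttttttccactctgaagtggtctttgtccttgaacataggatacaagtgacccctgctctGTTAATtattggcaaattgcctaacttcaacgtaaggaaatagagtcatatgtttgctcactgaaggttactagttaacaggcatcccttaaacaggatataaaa
Afm: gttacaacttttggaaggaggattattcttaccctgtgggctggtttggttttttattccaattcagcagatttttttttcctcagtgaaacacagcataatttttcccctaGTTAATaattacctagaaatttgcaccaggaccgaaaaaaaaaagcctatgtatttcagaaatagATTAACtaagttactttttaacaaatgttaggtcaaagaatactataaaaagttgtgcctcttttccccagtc
Gc: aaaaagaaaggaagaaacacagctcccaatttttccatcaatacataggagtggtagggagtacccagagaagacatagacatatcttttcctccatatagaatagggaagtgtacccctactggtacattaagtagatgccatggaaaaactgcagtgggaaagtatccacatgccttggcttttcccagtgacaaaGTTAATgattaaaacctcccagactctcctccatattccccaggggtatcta
The letters GTTAATNAT, searched on both strands and chosen after these sequences had been read, occurred in all 4 windows. Their first base lay 32 bases before the start in Alb, 52 in Gc, 105 in Afp and 138 in Afm, and Afm also had GTTAAT on the reverse strand at 73 bases. Of all 32851 RefSeq promoter windows of this length, 0.737% held GTTAATNAT and 6.43% held the shorter GTTAAT, which it contains. One of 2 windows of Cp held GTTAATNAT, at 197 bases on the reverse strand, and neither window of Rbp4 did. These matches describe the letters in the windows and carry no measurement of binding.

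Carrier transcripts took a large share of every library. The 8 genes together held 6.31%, 13.1% and 8.71% of all counts in vehicle replicates 1, 2 and 3 and 6.38%, 6.93% and 5.44% in insulin replicates 1, 2 and 3. The exact Clopper-Pearson 95% interval of the largest share, 13.1% to 13.2%, covers counting error only and is far narrower than the differences between mice. The groups overlapped, with vehicle replicate 1 below insulin replicates 1 and 2. The mean share was 9.39% ± 3.46 (SD, n = 3) in vehicle and 6.25% ± 0.753 in insulin mice, a difference of -3.14 percentage points that came to -1.27 without vehicle replicate 2 and to -4.68 without vehicle replicate 1. Alb supplied 76.8% to 87.4% of the carrier counts and was the gene with the most counts in all 6 libraries. With Alb set aside, the other 7 genes held 1.38%, 1.66% and 1.64% of counts in vehicle and 1.26%, 1.32% and 1.26% in insulin libraries, which did not overlap. Among these 7 genes taken singly, only Gc and Ttr had shares that did not overlap. Of all genes tested, 12.3% had normalized levels apart in either direction.

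**Figure D1:**
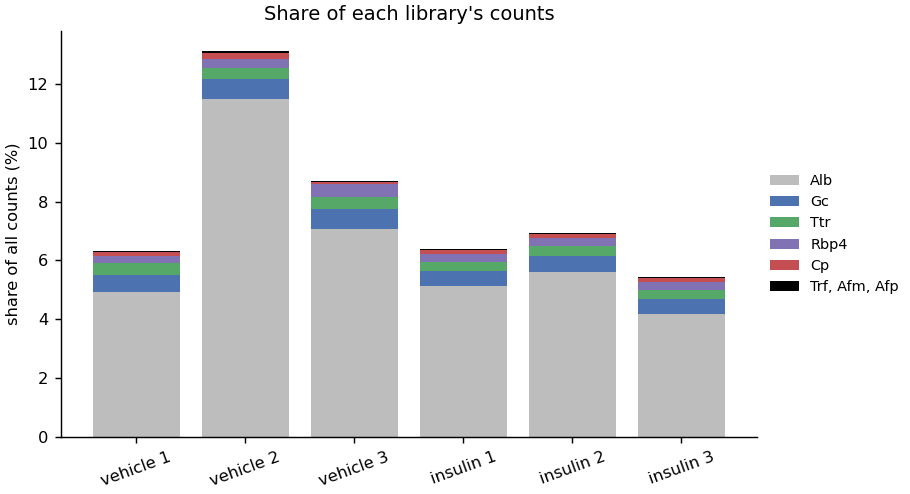
Share of all counts (%, y axis) taken by the carrier genes in each of the 6 libraries (x axis, group and replicate number), stacked by gene. Alb makes up most of every bar, and the summed share is highest in vehicle replicate 2 at 13.1% and lowest in insulin replicate 3 at 5.44%.

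Levels of different genes were compared per kilobase of the longest annotated transcript. Over the 6 libraries Alb averaged 32761 ± 18206 CPM per kb (SD, n = 6). Gc followed at 3291 ± 803, Ttr at 3041 ± 621, Rbp4 at 2591 ± 740, Cp at 295 ± 112, Trf at 142 ± 96.7, Afm at 65.0 ± 35.9 and Afp at 0.828 ± 0.272 CPM per kb. Alb exceeded Gc by 7.29-fold to 14.8-fold within a library. The neighbours Gc and Ttr were within their spread of each other, since Gc was the higher in 4 of 6 libraries, and Ttr and Rbp4 swapped places in 1 of 6. The steps from Rbp4 to Cp, Cp to Trf, Trf to Afm and Afm to Afp held in 6 of 6 libraries. The place of Trf in this order is uncertain. Gm20425 shares 63.5% of the exonic bases of Trf on the same strand, and how such reads were assigned is not known.

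In the comparison of groups, all 8 genes had a lower fitted level with insulin, where 51.4% of all genes tested did and 48.6% were higher. Their median log2 fold change was -0.49, beside -0.017 over all genes tested. It was -0.36 without vehicle replicate 2, -0.30 with library totals as the only scaling and -0.25 with voom and sample weights. In these settings, in the same order, the median over all genes tested was 0.013, 0.16 and 0.013. No gene of the table passed an adjusted p of 0.05 in edgeR's quasi-likelihood test (0 of 13377, a background of 0%), nor did any in DESeq2, while 383 genes had an unadjusted p below 0.05. The study called a gene when its log2 fold change was 0.35 or more in size and its unadjusted p was below 0.05, and by these criteria 1 of the 8 genes, Afm, was called lower with insulin. Of all genes tested, 2.86% met these criteria and 1.86% met them as lower. For 2 of the 8, Gc and Ttr, each insulin library was below each vehicle library, as it was for 6.04% of all genes tested, and groups were apart in either direction for 12.3%. The adjusted p in edgeR was 0.852 for Alb, Afm, Gc, Ttr, Rbp4 and Trf, 0.857 for Cp and 0.920 for Afp. Directions of genes that missed the criteria are given as values only. In whole liver, fewer cells of a type and less RNA per cell cannot be told apart.

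**Figure D2:**
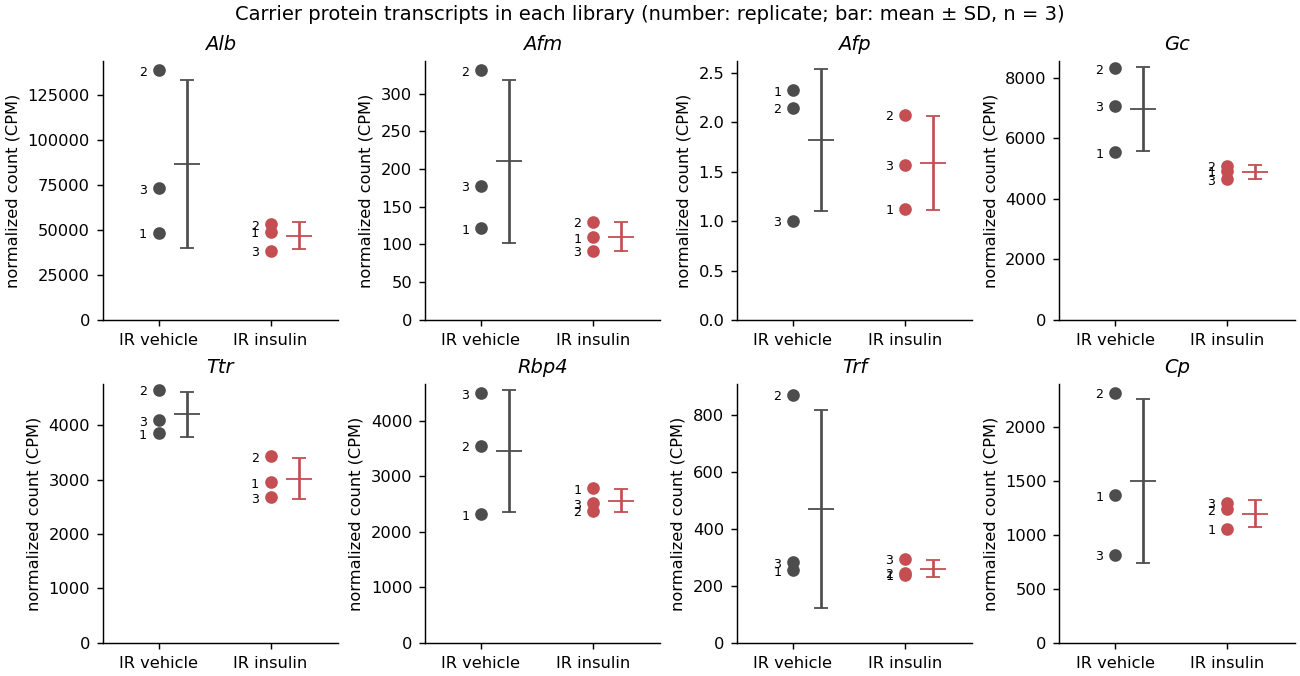
Normalized count (CPM, y axis from 0, a separate scale per gene) of each carrier gene in the IR vehicle and IR insulin libraries. Points are single mice numbered by replicate and bars are mean ± SD (n = 3); vehicle replicate 2 is the highest point for 6 of the 8 genes, and for Gc and Ttr every insulin point lies below every vehicle point.

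Albumin itself is the main carrier of fatty acids in plasma. Alb (ENSMUSG00000029368) had 48158, 138554 and 72891 CPM in the vehicle mice (replicates 1, 2 and 3) and 48998, 52960 and 38255 CPM in the insulin mice. Vehicle replicate 2 was far above all others, vehicle replicate 1 lay among the insulin libraries, and the groups overlapped. The means were 86534 ± 46717 CPM (SD, n = 3) and 46738 ± 7608 CPM. This gave a log2 fold change of -0.89 ± 0.46 (SE), outside the criteria. It came to -0.37 ± 0.39 once vehicle replicate 2 was left out. The criteria were met when vehicle replicate 1 was left out (-1.18 ± 0.38, adjusted p = 0.506 in edgeR) and when DESeq2 was used on all 6 libraries (-0.89, adjusted p = 0.989).

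Afamin, which binds vitamin E and Wnt proteins, came from a far less abundant transcript with the same profile. Afm (ENSMUSG00000029369) was at 122, 331 and 178 CPM in the vehicle libraries and at 110, 130 and 91.7 CPM in the insulin libraries. As for Alb, vehicle replicate 2 was the highest, insulin replicate 3 the lowest, and vehicle replicate 1 fell below insulin replicate 2. The means were 210 ± 108 and 110 ± 19.0 CPM and the log2 fold change was -0.93 ± 0.38, within the criteria. The call was lost without vehicle replicate 2 (-0.43), insulin replicate 1 (-0.92), insulin replicate 2 (-1.06) or insulin replicate 3 (-0.80). It was also lost with library totals as the only scaling (-0.70) and with voom and sample weights (-0.31). Gm42109 covers 3.55% of the exonic bases of Afm on the opposite strand and had 0 to 2 counts per library.

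Alpha-fetoprotein, the fetal counterpart of albumin, was close to the detection limit. Afp (ENSMUSG00000054932) had 44, 35 and 21 counts in vehicle and 25, 48 and 34 counts in insulin libraries, so that counting error alone was 14.4% to 21.8% of each value. These counts came to 1.83 ± 0.719 and 1.59 ± 0.477 CPM, and the insulin values fell inside the vehicle range. Gm43449, annotated on the opposite strand over Afp with 0 exonic bases in common, had 0 to 22 counts per library. Afp itself had a log2 fold change of -0.19 ± 0.46, which was -0.053 without vehicle replicate 2, and its sign turned without vehicle replicate 1 (0.027) or insulin replicate 1 (0.0085). Afp ranked between 10360 and 12052 among genes by counts, whereas its neighbours Alb and Afm ranked first and between 459 and 1354.

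The vitamin D-binding protein is the most distant member of the family and also scavenges actin. Gc (ENSMUSG00000035540) was at 5528, 8305 and 7069 CPM in vehicle and at 4925, 5090 and 4646 CPM in insulin libraries. Every insulin library was below every vehicle library, and the insulin libraries lay within 1.10-fold of each other. Its log2 fold change was -0.51 ± 0.28, which met the study's criteria in 1 of the alternatives run, with vehicle replicate 1 left out (-0.65, adjusted p = 0.506 in edgeR). Without vehicle replicate 2 it was -0.36.

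Transthyretin and retinol-binding protein travel together in plasma as one complex. Ttr (ENSMUSG00000061808, chr18:20665280-20674321, plus strand) stood at 3847, 4651 and 4091 CPM in vehicle and 2952, 3425 and 2676 CPM in insulin libraries. All vehicle values were above all insulin values, and Ttr had the narrowest range of the 8 genes among vehicle libraries (1.21-fold). The fitted log2 fold change was -0.48 ± 0.26. It was -0.39 without vehicle replicate 2 and met the criteria in none of the alternatives run.

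Rbp4, whose product brings retinol from liver stores to other tissues, did not share the profile of Ttr. Rbp4 (ENSMUSG00000024990) had 2318, 3554 and 4500 CPM in vehicle and 2785, 2377 and 2518 CPM in insulin libraries. Here vehicle replicate 3 was the highest and vehicle replicate 1 the lowest of all 6, so the insulin libraries fell inside the vehicle range. A log2 fold change of -0.43 ± 0.31 resulted. It came to -0.65 without vehicle replicate 1, then within the criteria, to -0.41 without vehicle replicate 2, to -0.20 without vehicle replicate 3 and to -0.84 with an offset for GC content.

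Both iron-handling carriers had their highest value in vehicle replicate 2. Trf (ENSMUSG00000032554) stood at 255, 870 and 282 CPM in vehicle and at 239, 246 and 295 CPM in insulin libraries. That 1 library was 3.41 times the median of the other 5, the largest such ratio of the 8 genes, and the remaining values overlapped between groups. The log2 fold change of -0.85 ± 0.47 came to -0.043 ± 0.17 without that library, and it met the criteria without vehicle replicate 1 (-1.14) or vehicle replicate 3 (-1.11). The annotation places Gm20425 on the same strand over 63.5% of the exonic bases of Trf, and Gm20425 had 0 counts in all 6 libraries, so how reads of the shared exons were assigned is not known and the Trf counts are uncertain.

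Cp (ENSMUSG00000003617) had 1367, 2313 and 816 CPM in vehicle and 1054, 1237 and 1296 CPM in insulin libraries. Vehicle libraries were at once the highest and the lowest, with a 2.84-fold range that enclosed the insulin libraries. Its log2 fold change was -0.33 ± 0.39. Leaving out vehicle replicate 2 turned it to 0.14, leaving out vehicle replicate 3 gave -0.62, and the offset for GC content gave -0.0033. Cp overlaps Hps3 on the opposite strand over 1.13% of its exonic bases, and Hps3 had only 148 to 192 counts per library.

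**Figure D3:**
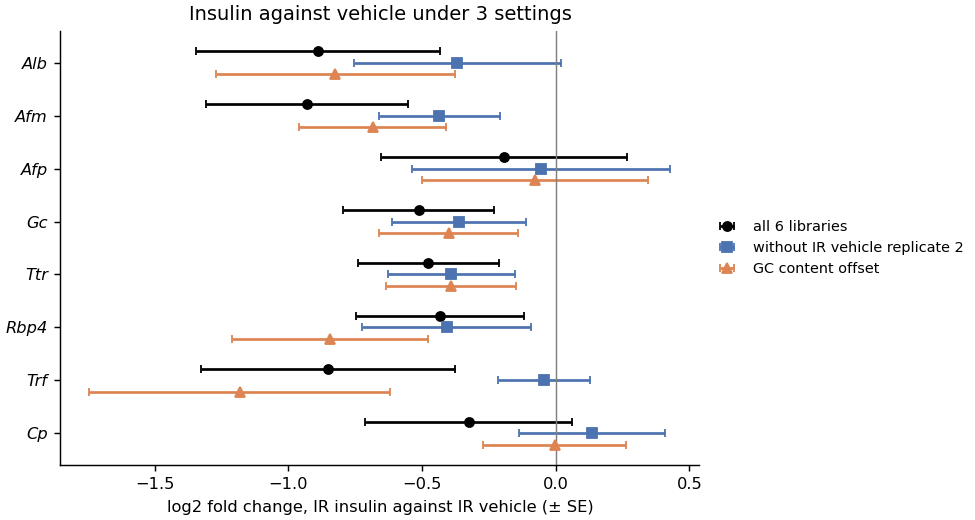
Log2 fold change of IR insulin against IR vehicle (x axis, ± SE from edgeR) for the carrier genes (y axis) with all 6 libraries, without IR vehicle replicate 2 and with an offset for GC content. Trf goes from -0.85 to -0.043 and Cp from -0.33 to 0.14 without that library, while Gc, Ttr and Rbp4 lie between -0.41 and -0.36 without it.

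The carrier genes differed in how far they varied among mice of one group. Between the lowest and the highest vehicle library, Trf spanned 3.41-fold, Alb 2.88-fold, Cp 2.84-fold, Afm 2.72-fold and Afp 2.32-fold, whereas Rbp4 spanned 1.94-fold, Gc 1.5-fold and Ttr 1.21-fold. Among insulin libraries the same genes spanned 1.10-fold (Gc) to 1.41-fold (Afm), apart from Afp at 1.85-fold. The range was the wider among vehicle libraries for 7 of the 8 genes, all but Ttr, and so it was for 85.2% of all genes tested, whose median ranges were 2.02-fold and 1.28-fold.

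The counts of Alb and Afm stayed in proportion. In vehicle replicates 1, 2 and 3 there were 396, 419 and 410 counts of Alb for each count of Afm, and in insulin replicates 1, 2 and 3 there were 447, 409 and 417. This ratio does not depend on library scaling and was 416 ± 17.0 (SD, n = 6), a coefficient of variation (CV) of 4.08%, while each gene alone varied 2.72-fold or 2.71-fold in counts. Counting error of Afm alone was 1.36% to 2.24%. The CV was the smallest of the 28 pairs of carrier genes, the next being 8.79% for Gc to Ttr, whose ratio ran from 1.44 to 1.79. Other ratios moved widely, with Alb to Gc at 8.23 to 16.7 and Alb to Ttr at 12.5 to 29.8.

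**Figure D4:**
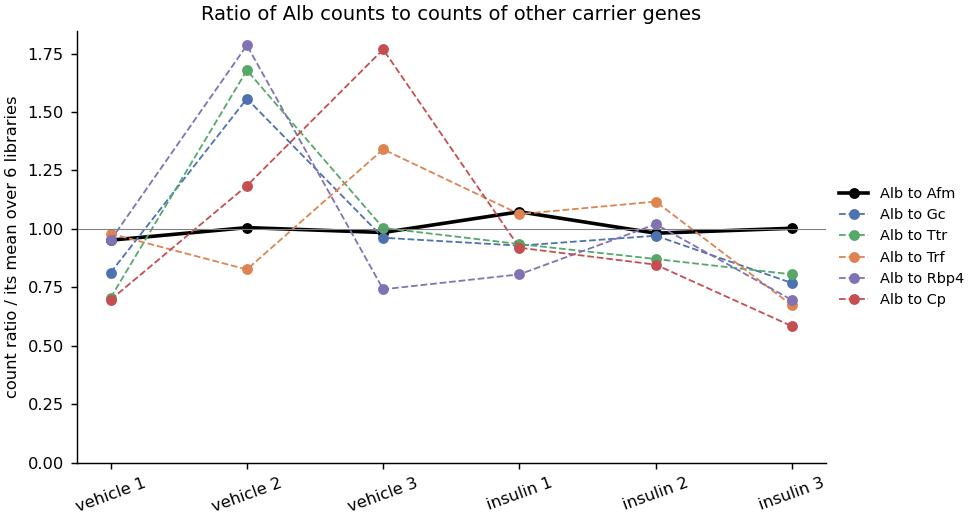
Ratio of Alb counts to the counts of 6 other carrier genes, each divided by its mean over the 6 libraries (y axis), in each library (x axis); lines join the values of 1 pair. The line for Afm stays near 1 (CV 4.08%), whereas those for Gc, Ttr and Rbp4 peak in vehicle replicate 2 and that for Cp in vehicle replicate 3.

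Against the 2511 genes tested with a mean of at least 50 CPM, Afm also stood first. Its ratio to Alb had the smallest CV, where the median CV was 50.1% and 9 genes were below 10%, and its log2 CPM had the highest correlation with that of Alb (Pearson r = 0.996, Spearman rho = 0.943, 6 libraries that share their scaling and depth). The r was 0.984 without vehicle replicate 2 and 0.942 without vehicle replicates 2 and 3. When 1 library at a time was left out, Afm ranked between 1 and 5 by CV and between 1 and 29 by r. The next most alike were Dpp4 (0.994), a peptidase, and Cnbp, Bche and Ttpa (each 0.993), of which Bche encodes butyrylcholinesterase and Ttpa the hepatic vitamin E transfer protein. The least alike were Grina (-0.996), H2-D1 (-0.994), Helz2 (-0.993), Bst2 (-0.992) and Lmna (-0.991).

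The other carriers followed Alb less closely over the 6 libraries. Gc ranked 173 of 2511 (r = 0.951), Trf 472 (0.874), Ttr 533 (0.855), Rbp4 946 (0.668) and Cp 1114 (0.546). Without vehicle replicate 2 the r of Trf with Alb was -0.057 and that of Cp -0.83, so their likeness rested on that library. Gc and Ttr put the 6 libraries in the same order (rho = 1, r = 0.920), while Rbp4 and Cp did not vary together (r = -0.17). The longest identical stretch between the transcripts of any pair of the 8 genes was 9 to 14 bases, and 13 bases for Alb and Afm, so the transcripts hold no longer run of bases in common.

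The next protein-coding gene after Afm in the genome had another profile. It is 5830473C10Rik (chr5:90561107-90597871), which begins 7563 bp beyond Afm. It was named for its position, and its relation to the albumin family was not examined. Its levels were 15.8, 18 and 32.4 CPM in vehicle and 17.5, 17.4 and 13.4 CPM in insulin libraries, highest in vehicle replicate 3. Its log2 fold change was -0.46 ± 0.32, outside the criteria, and came to -0.075 without vehicle replicate 3.

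Vehicle replicate 2 differed from the other libraries along the GC content of transcripts, so each carrier gene was set beside the genes tested within 1 percentage point of its own GC content. The deviation was the log2 CPM in that library minus the median of the other 5. For Alb (GC 47.5%) it was 1.5, where like genes had a median of 0.29 and 98.4% of them were lower. For Afm (43.2%) it was 1.44 against 0.60, with 94.9% lower, and for Trf (52.5%) 1.77 against -0.39, with 99.4% lower. These 3 genes and Rbp4 (0.50 against -0.84, 96.5% lower) thus lay in the upper tail of genes of their own GC content. Cp (0.90 against 0.74), Gc (0.71 against 0.43), Ttr (0.44 against 0.37) and Afp (0.43 against 0.41) were near the bulk, with 51.2% to 72.5% of like genes lower.

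**Figure D5:**
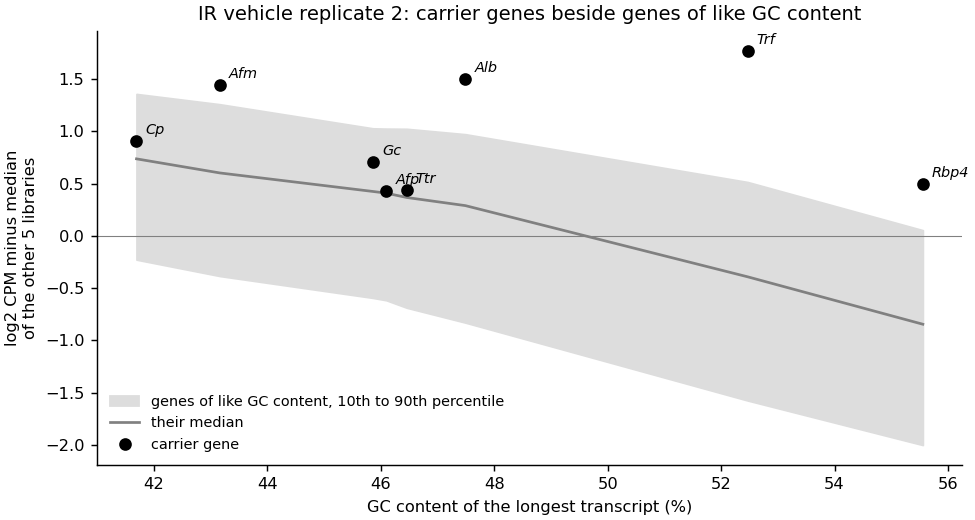
Log2 CPM in IR vehicle replicate 2 minus the median of the other 5 libraries (y axis) against GC content of the longest transcript (x axis, %). Points are the carrier genes, the line is the median of genes of like GC content and the band their 10th to 90th percentile; Alb, Afm, Trf and Rbp4 lie above the band and Cp, Gc, Ttr and Afp within it.

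In vehicle replicate 3 the carriers deviated in both directions. Rbp4 (0.84), Alb (0.57), Afm (0.55) and Gc (0.47) were above the median of the other libraries, with medians of like genes between -0.09 and 0.10. In the same order, 90.9%, 85.7%, 89.7% and 86.1% of like genes were lower. For Alb, Afm and Gc, vehicle replicate 2 was higher still. Cp (-0.67) and Afp (-0.99) were below, where 16.6% and 7.47% of like genes were lower still. The same mouse was thus highest for Rbp4 and lowest for Cp and Afp.

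The direction of other carrier and binding proteins made by the liver depended on the setting. Of 18 such genes, all tested, 9 were higher and 9 lower with insulin, none met the study's criteria, and the median log2 fold change was 0.0040 beside -0.017 over all genes. The split was 12 higher and 6 lower with library totals (median 0.16) and 4 and 14 with the GC offset (-0.15). RLE factors turned the median to -0.0085. The median over all genes tested was itself 0.16 with library totals, -0.061 with the GC offset and -0.029 with RLE factors. The split was 5 and 13 without vehicle replicate 2 (-0.21) and 13 and 5 without vehicle replicate 3 (0.21). In these 2 settings the median over all genes tested was 0.013 and 0.024. The smallest unadjusted p was that of Pltp, the phospholipid transfer protein, with a log2 fold change of 0.90 ± 0.43 (adjusted p = 0.852 in edgeR, as for the other genes named in these lists except Cdkn1c), and it came to 0.60 without vehicle replicate 2. Apoh, which binds phospholipids, had non-overlapping groups as Gc and Ttr did, with 1626, 2407 and 2155 CPM in vehicle and 1546, 1614 and 1330 CPM in insulin libraries and a log2 fold change of -0.46 ± 0.27. Selenop, the selenium carrier, was at -0.48 ± 0.30, and at -0.27 without vehicle replicate 2. Apoh (-0.61) and Selenop (-0.65) met the criteria without vehicle replicate 1. Pltp met them with no low-count filter (0.93) and without vehicle replicate 3 (1.19) or insulin replicate 3 (1.19).

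Among 21 genes for receptors, loading and cargo handling, 20 were tested (Cubn was not). Of these, 4 were higher and 16 lower, where 51.4% of all genes tested were lower. The median log2 fold change of the 20 was -0.19, beside -0.017 over all genes. With library totals as the only scaling the split was 10 higher and 10 lower. The median was then -0.028, beside 0.16 over all genes tested in that setting. Slc40a1, which encodes ferroportin, the exporter that delivers iron to transferrin, was the 1 gene within the study's criteria, which 2.86% of all genes tested met. It was at 88.5, 134 and 158 CPM in vehicle and 75.9, 64.7 and 87.1 CPM in insulin libraries, with no overlap, and a log2 fold change of -0.74 ± 0.27 (adjusted p = 0.852 in edgeR). Its call was lost with library totals (-0.55), voom (-0.51), the GC offset (-0.56) or the block with GC offset (-0.49). The call was also lost without vehicle replicate 3 (-0.55), insulin replicate 1 (-0.73) or insulin replicate 2 (-0.63). Lrp1, a large endocytic receptor, was at 0.40 ± 0.23, met the criteria with library totals (0.57) and turned to -0.15 with the GC offset. Cyp2r1, a vitamin D 25-hydroxylase, was at -0.50 ± 0.30. It was at -0.30 without vehicle replicate 2 and met the criteria without vehicle replicate 1 (-0.71).

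Of 20 transcription factors with known roles at these promoters, all tested, 13 were higher and 7 lower, where 48.6% of all genes were higher. None met the criteria. The median of 0.15, beside -0.017 over all genes, turned to -0.10 with the GC offset, where that over all genes was -0.061. Hif1a, the oxygen-regulated factor known to act on Trf and Cp, was at -0.66 ± 0.29, and its groups did not overlap. It was at 49.0, 88.5 and 47.2 CPM in vehicle libraries, and the log2 fold change came to -0.30 ± 0.14 without vehicle replicate 2 and to -0.36 with the GC offset. Hif1a met the criteria with RLE factors (-0.67), with voom (-0.38) and without vehicle replicate 1 (-0.80) or vehicle replicate 3 (-0.82). Foxa1, a pioneer factor of liver genes, was at 0.54 ± 0.24, also without overlap but higher with insulin, and Foxa3 was at 0.44 ± 0.26. With the GC offset they were at 0.26 and 0.17. Foxa1 met the criteria with library totals (0.70) and without vehicle replicate 1 (0.66).

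Of 7 fetal liver genes other than Afp, 4 passed the filter on low counts and Dlk1, H19 and Igf2 did not. One was higher and 3 were lower, none within the criteria. Their median of -0.30, beside -0.017 over all genes, turned to 0.14 with voom and sample weights and to 0.19 without vehicle replicate 2. Peg3 was at 0.56 ± 0.32, Plagl1 at -0.57 ± 0.51 and Cdkn1c at -0.41 ± 0.66 (adjusted p = 0.878 in edgeR), all at levels of a few CPM like Afp. Plagl1 was at -0.14 without vehicle replicate 2.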

How the data were processed

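Liver RNA of 6 mice was sequenced, 1 library per mouse. Per the study's methods and processing notes, the authors prepared libraries using a NEBNext Ultra RNA kit, read them on an Illumina HiSeq instrument and aligned the reads with Bowtie2 2.2.3 to mm10. The deposited values were whole-number read counts per gene, neither normalized nor pooled by the authors. The counting program, annotation and use of strand are not given in the sources used here, so counts of overlapping genes are uncertain. Because Bowtie2 does not split reads, those that cross exon junctions can be lost.

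The groups were compared in edgeR 4.0.16 under R 4.3.3 (quasi-likelihood F test, TMM, no covariate, filterByExpr at a count of 10 and a total of 15), with Benjamini-Hochberg adjustment over 13377 genes. The SE of a log2 fold change was derived from the F statistic, and CPM are TMM-scaled. The authors used DESeq2, run here (1.42.0) as an alternative, as were voom of limma 3.58.1, other scalings, filters, a replicate block and a GC offset (loess, span 0.5). The fit was run on simulated counts. A set recovery was required only at less spread than these data have, with changes larger than those of the carrier genes. Of the 54532 genes, 54495 (99.9%) matched GENCODE release 21. RefSeq promoter sequences were found for 6 of the 8 genes, all but Ttr and Trf. Named were the 8 genes, the 3 with the smallest p of each related list, the 5 most and 5 least like Alb, and genes overlapping a carrier gene; any other was chosen after its values were seen. The carrier genes and the related lists were chosen with earlier results of these data known.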

Additional observations from a re-analysis of the deposited data

How the results depend on the processing

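The fits for all genes and for the carrier and related genes were repeated under 16 alternatives. Of 526 alternative values of 34 results, 459 were taken as unchanged, 11 medians of related lists that changed sign among them. A gene was unchanged if it kept its sign and its side of the threshold. A count had to be equal to its main value or within a set fold of it. Medians, shares and ratios had to move by less than a typical SE of the genes or the SD between libraries. Values taken as unchanged can thus still differ widely. Of the rest, 13 lost the call, 19 gained it, 27 moved and 8 reversed. No setting gave an adjusted p below 0.05, and over the alternatives the adjusted p of the 8 carrier genes ran from 0.473 (without IR vehicle replicate 1) to 0.9997 (voom). The 383 genes past the study's criteria became 742 with no low-count filter, 213 with voom and 99 to 1349 when 1 library was left out. They divided into 134 higher and 249 lower, against 250 and 91 with library totals only, 108 and 105 with voom, and 93 and 379 with the GC offset. Library totals moved the median of all genes to 0.16. The 1 carrier gene past the criteria became 0 with library totals or voom, 2 with DESeq2 (Afm and Alb) and 0 to 5 when 1 library was left out. The count was 5 without IR vehicle replicate 1 (Afm, Alb, Gc, Rbp4 and Trf), 2 without IR vehicle replicate 3 (Afm and Trf) and 0 without IR vehicle replicate 2 or any insulin library. The number of related genes past the criteria, 1 with all libraries, was 2 with RLE factors, library totals, no filter or the replicate block with GC offset, 4 with the GC offset and 0 to 8 when 1 library was left out. Slc40a1 was not among them with library totals, voom or either GC offset. With voom the number was also 1, and the gene was Hif1a. Reversed were Afp without IR vehicle replicate 1 (0.027) and IR insulin replicate 1 (0.0085), Cp without IR vehicle replicate 2 (0.14) and with the block and GC offset (0.021), Lrp1 with the GC offset (-0.15) and with the block and GC offset (-0.077), and Cdkn1c without IR vehicle replicate 3 (0.056) and IR insulin replicate 3 (0.043). With 1 library left out, Afp ranged from -0.49 to 0.027, Cp from -0.62 to 0.14 and Cdkn1c from -0.85 to 0.056. The cause was not tested.

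Same-numbered libraries did not deviate together (r of -0.039, 0.069 and 0.017). With so few libraries per group these values cannot show whether the numbers pair the mice, and the labels do not say. With the replicate block, 321 genes met the criteria (203 higher and 118 lower), and Afm remained the 1 carrier gene called (log2 fold change -0.82).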
